A study of Mus musculus with 6 samples.

Results

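The Dpy19-like genes are 4 mouse paralogs, Dpy19l1, Dpy19l2, Dpy19l3 and Dpy19l4, taken by symbol from the 50600 genes of the deposited tables. All 4 had a row, and 3 of them passed the filter on low counts that left 14314 genes for testing. Dpy19l3 was selected on its measured fold change, far lower in the Dicer-deleted livers, so its values in that contrast are given as a description with no test. Its paralogs were chosen by name and are set beside it. The genotype of the deleted animals is labelled Dicerloxp/loxp;Alb-cre (called Dicer LKO here, n = 3) and that of the controls Dicerloxp/loxp (n = 3), so that both groups carry the loxP-flanked alleles and differ by the Cre transgene. All 6 whole-liver RNA samples came from C57BL/6 mice about 1 month old. The albumin promoter drives Cre mainly in hepatocytes, and deletion in the other cells of the liver was not measured here. The labels do not say whether each sample is a separate animal, and a p-value here covers only the spread among these 6 samples, part of which may be technical.

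The C-mannosyltransferases of the Dpy19 family are membrane enzymes of the endoplasmic reticulum. They take mannose from dolichol-phosphate-mannose and attach it through a carbon-carbon bond to tryptophan in secreted and cell surface proteins, a modification called C-mannosylation. Its best-known acceptors are thrombospondin type 1 repeats, found in matrix proteins, ADAMTS proteases and the terminal complement proteins made by hepatocytes, and the WSXWS motif of type I cytokine receptors. The worm enzyme DPY-19 guides migrating neuroblasts. In human cells DPY19L1 and DPY19L3 modify different tryptophans of the thrombospondin repeat. Dpy19l2 is known for its part in shaping the sperm head. Enzyme activity of the mouse members was not measured here. Dicer, the enzyme deleted here, cuts precursors into mature miRNAs, which pair through their seed (bases 2 to 8) with sites in the 3′ untranslated regions of messenger RNAs.

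Because loss of Dicer removes miRNAs, the seed matches in the members' longest annotated 3′ untranslated regions (GENCODE M21, GRCm38) are shown first. The mature sequences of 10 miRNAs known to be abundant in liver, credited to RefSeq (GRCm38.p6), were searched, and 9 perfect seed matches were found. The search did not include miR-122-5p, a main miRNA of hepatocytes, which was not analysed here. Dpy19l4 held 5 of them in 4463 bases, Dpy19l1 held 2 in 2491 bases, Dpy19l3 held 2 in 5616 bases and Dpy19l2 held 0 in 990 bases. Dpy19l3, the member that was lower in Dicer LKO, thus had the longest region of the 4 and one longer than that of 97.0% of the tested genes. The miRNAs with a match are given with the seed in capitals, 5′ to 3′.
miR-21a-5p: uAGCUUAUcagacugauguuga
miR-22-3p: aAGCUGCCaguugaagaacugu
miR-26a-5p: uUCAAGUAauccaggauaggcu
miR-30a-5p: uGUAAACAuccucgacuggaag
miR-148a-3p: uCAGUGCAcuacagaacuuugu
miR-194-5p: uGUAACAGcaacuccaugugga
No 2 of these share a seed.

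The matched stretches of the messenger RNAs follow, with the bases complementary to the seed in capitals.
Dpy19l3, miR-22-3p match: accctctcaggcacGGCAGCTtccctc
Dpy19l3, miR-194-5p match: taataagtcctgttCTGTTACgcatgc
Dpy19l1, miR-21a-5p match: acattaaacaaaaaATAAGCTgggtaa
Dpy19l1, miR-30a-5p match: aattttatgcccctTGTTTACatgtac
Dpy19l4, miR-30a-5p match: ttttccaaggtcagTGTTTACttcaaa
Dpy19l4, miR-26a-5p match, upstream copy: caacatgtgaaaccTACTTGAtaaggg
Dpy19l4, miR-26a-5p match, downstream copy: gactctgtgaaaccTACTTGAtaaggg
The miR-26a matches of Dpy19l4 start 55 bases apart, and 23 of the 27 bases shown are the same in both. Dpy19l4 also matched miR-21a-5p and miR-148a-3p. Such matches are common: among 12612 tested genes with an annotated 3′ untranslated region, 7.90% held a miR-21a match, 11.3% a miR-26a match, 16.2% a miR-30a match, 15.7% a miR-22 match and 11.3% a miR-194 match. A match describes the sequence only and was not measured as a site of miRNA action.

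The libraries held 22257541 to 25049749 counts in Dicer LKO and 14141973 to 22152506 counts in the controls, with the fewest in control replicate 3. In that library 10.2% of counts came from mitochondrial genes, as did 4.62% to 6.46% of those of the other libraries. It also held 119 CPM in all of 8 heart muscle markers, against 14.1 CPM or less in each other library. Dicer1, the deleted gene, was at 28.9, 31.2 and 24.4 CPM in Dicer LKO and at 42.5, 69.3 and 56.1 CPM in the controls, lower in every library with the deletion (log2 fold change −0.99, SE 0.20, adjusted p = 0.0622, edgeR quasi-likelihood test with Benjamini-Hochberg adjustment). It was called by DESeq2 (adjusted p = 0.00118), without the filter on low counts (adjusted p = 0.022, edgeR) and without control replicate 1 (adjusted p = 0.0327, edgeR). The count covers the whole gene and all liver cells, not the deleted exons alone. The 10 hepatocyte markers, among them albumin, summed to 89570 to 93410 CPM in Dicer LKO and 53930 to 92020 CPM in the controls. All 10 were detected, 7 had a positive log2 fold change and edgeR called 0.

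Dpy19l3 (ENSMUSG00000043671.14, chromosome 7, 35685165 to 35754454, minus strand, GRCm38) received 39, 79 and 75 reads in Dicer LKO replicates 1, 2 and 3, and 547, 689 and 511 reads in control replicates 1, 2 and 3. Scaled by library size and TMM factor to CPM, these were 1.79, 3.76 and 2.99 in Dicer LKO and 24.7, 33.1 and 32.6 in the controls. Every Dicer LKO library lay far below every control. Of all tested genes, 15.4% had every Dicer LKO library below every control by any margin and 0.552% were called lower; nothing is read from these shares, because the gene was chosen on this contrast. The means were 2.85 ± 0.995 CPM in Dicer LKO and 30.1 ± 4.73 CPM in the controls (SD, n = 3 each), so that Dicer LKO livers held 9.46% of the control level. The log2 fold change was −3.40 (SE 0.28, taken from the F statistic of the fit), the 32nd lowest of the 14314 tested genes. With any 1 library left out it stayed between −3.60 and −3.15, and without control replicate 3 it was −3.32. In bulk tissue, fewer cells of a type and less RNA per cell cannot be told apart. The summed hepatocyte markers, given above, overlapped between the groups, and the part of cell numbers in the fall was not tested.

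Dpy19l1 (ENSMUSG00000043067.15, chromosome 9, 24411776 to 24503140, minus strand) was the most abundant member in both groups. It had 64.2, 94.8 and 61.3 CPM in Dicer LKO, against 61.3, 50.3 and 54.8 CPM in control livers. Dicer LKO replicate 2 stood above the rest, and the lowest Dicer LKO library exceeded the highest control by less than the spread within either group. The log2 fold change was 0.40 (SE 0.19) and did not pass the test (adjusted p = 0.271, edgeR quasi-likelihood test over all genes). Without Dicer LKO replicate 2 it was 0.22.

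Dpy19l4 (ENSMUSG00000045205.16, chromosome 4, 11261315 to 11322137, minus strand) had 23.4, 28.2 and 25.4 CPM in Dicer LKO, against 20.1, 23.3 and 22.6 CPM in control livers. The groups touched without overlapping, and the log2 fold change of 0.22 (SE 0.13) did not pass the test (adjusted p = 0.380, edgeR). On the authors' TPM scale the value was −0.022. Of the tested paralogs Dpy19l1 and Dpy19l4, 0 were called, in a comparison that called 1.29% of all tested genes (unadjusted p = 0.0666 for Dpy19l1 and 0.133 for Dpy19l4, edgeR; DESeq2 also called 0). Both had every Dicer LKO library above every control in CPM, as did 12.7% of all tested genes. Groups did not overlap in either direction for 28.0% of all tested genes. In TPM the groups of both paralogs overlapped. Dpy19l1 was at 11.5 to 16.1 TPM in Dicer LKO and 9.46 to 11.9 TPM in the controls. Dpy19l4 was at 2.81 to 3.1 TPM in Dicer LKO and 2.53 to 3.79 TPM in the controls. A missed threshold does not show that these genes were level in both groups.

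Dpy19l2 (ENSMUSG00000085576.3, chromosome 9, 24557047 to 24696293, minus strand) was next to silent. It received 0, 1 and 0 reads in Dicer LKO and 0 in each control. The chromosome 9 paralogs Dpy19l1 and Dpy19l2 lie 53.9 kb apart on the same strand. A count of 0 allows up to 3 reads, or 0.120 to 0.143 CPM in the Dicer LKO libraries and 0.135 to 0.191 CPM in the controls, for counting error only. No fold change is given because both groups lay under that limit.

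**Figure D1:**
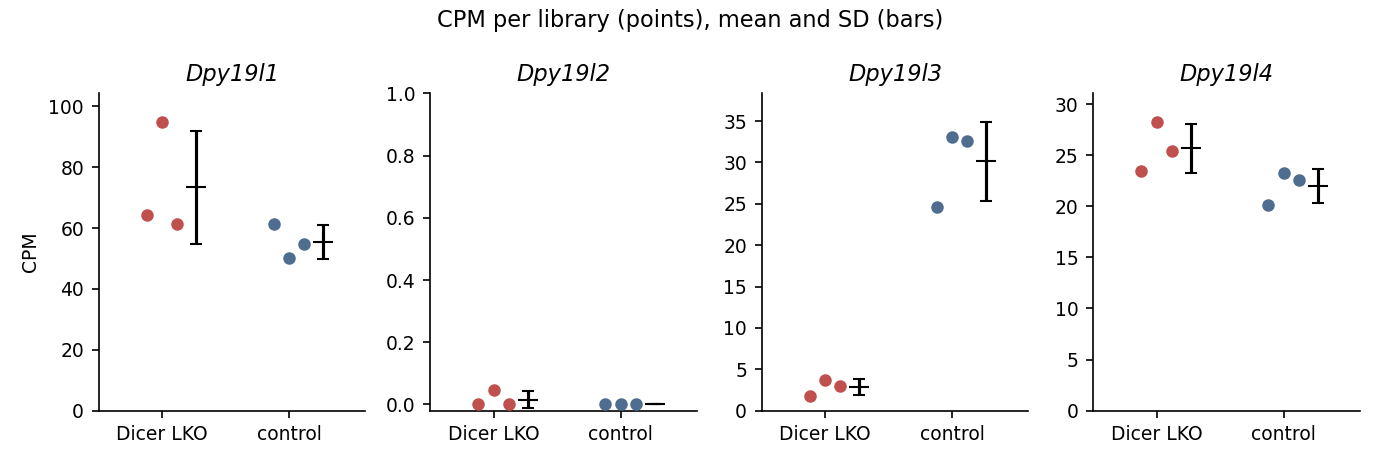
CPM of the 4 Dpy19-like genes in each library (points), with the mean and SD of the group beside them, Dicer LKO to the left of the control; each panel has its own linear axis. Dpy19l3 sits at 1.79 to 3.76 CPM in Dicer LKO and 24.7 to 33.1 CPM in the controls, while Dpy19l1 spans 61.3 to 94.8 CPM in Dicer LKO and 50.3 to 61.3 CPM in the controls, Dpy19l4 spans 23.4 to 28.2 CPM in Dicer LKO and 20.1 to 23.3 CPM in the controls, and Dpy19l2 is at or near 0.

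Levels of different genes were compared in TPM, which is corrected for transcript length. In the Dicer LKO livers the order was Dpy19l1 (13.1 ± 2.56 TPM, SD, n = 3), Dpy19l4 (2.93 ± 0.153 TPM), Dpy19l3 (0.690 ± 0.217 TPM) and Dpy19l2. In the controls it was Dpy19l1 (10.9 ± 1.26 TPM), Dpy19l3 (5.59 ± 1.07 TPM), Dpy19l4 (3.02 ± 0.677 TPM) and Dpy19l2 (0 TPM). Neighbours in each order did not overlap in any library, so Dpy19l3 and Dpy19l4 stood in opposite order in the groups. The ratio of Dpy19l3 to Dpy19l4 in TPM was 0.199, 0.199 and 0.303 in Dicer LKO and 1.597, 2.44 and 1.65 in the controls. Among all tested genes the mean TPM of Dpy19l3 exceeded that of 20.1% in Dicer LKO and 60.6% in the controls, whereas Dpy19l4 exceeded 47.5% in Dicer LKO and 45.2% in the controls.

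Summed over the family, TPM came to 14.9, 19.5 and 15.8 in Dicer LKO and to 19.0, 18.2 and 21.3 in the controls. These sums overlapped. Dpy19l3 made up 3.77%, 2.92% and 5.95% of the sum in Dicer LKO and 23.0%, 33.9% and 29.4% in the controls. The share of Dpy19l1 was 78.0 ± 3.99% in Dicer LKO and 55.8 ± 5.90% in the controls (SD, n = 3 each). Without Dpy19l3 the other members summed to 16.0 ± 2.53 TPM in Dicer LKO and 13.9 ± 1.65 TPM in the controls, a difference within the SD of the deleted group. These shares rest in part on the contrast that chose Dpy19l3 and are descriptions.

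**Figure D2:**
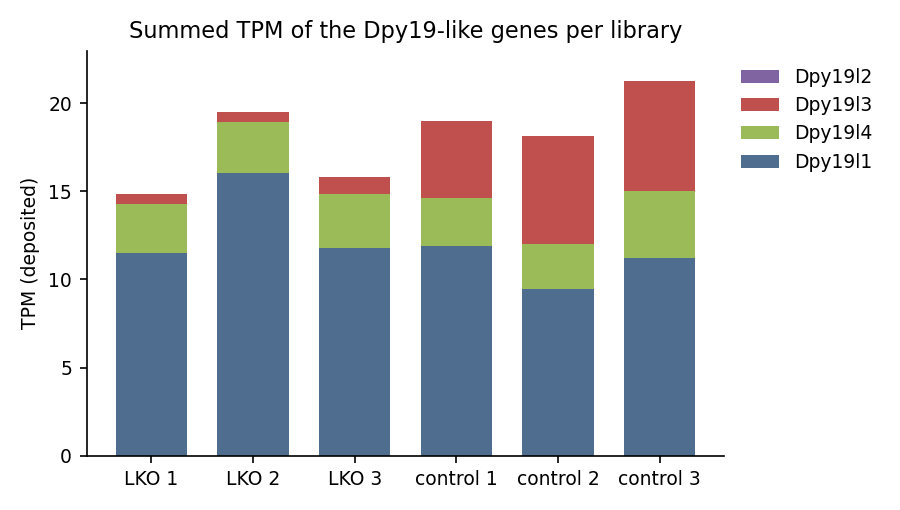
Deposited TPM of the Dpy19-like genes stacked for each library, with the 3 Dicer LKO libraries on the left and the 3 controls on the right. The Dpy19l3 segment is 0.56 to 0.94 TPM high in Dicer LKO and 4.36 to 6.26 TPM in the controls, and the Dpy19l1 segment is the tallest in all 6; that of Dpy19l2 is too thin to see.

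The tables also give a length for each gene that is the mean over its transcripts, weighted by their estimated abundance, which the choice of Dpy19l3 did not use. For Dpy19l3, with 10 transcripts of 314 to 8006 bases of which 1 codes for protein, it was 2383, 4329 and 2442 bases in Dicer LKO and 4333, 3957 and 4112 bases in the controls. Dicer LKO replicates 1 and 3 were short, and replicate 2 lay among the controls, so the groups overlapped (exact two-sided permutation p = 0.3, where 3 against 3 cannot go below 0.1). These lengths rest on 39 to 79 reads in Dicer LKO. The TPM of Dpy19l3 in Dicer LKO was 12.3% of the control mean, against 9.46% in CPM, which takes no account of length. TPM and CPM are also scaled differently, and the part of the lengths in this gap was not tested. The lengths of Dpy19l1 were 3860 to 3978 bases in Dicer LKO and 3872 to 3963 bases in the controls (exact permutation p = 1). Those of Dpy19l4 were 5839 to 6395 bases in Dicer LKO and 4679 to 6631 bases in the controls (exact permutation p = 0.5).

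**Figure D3:**
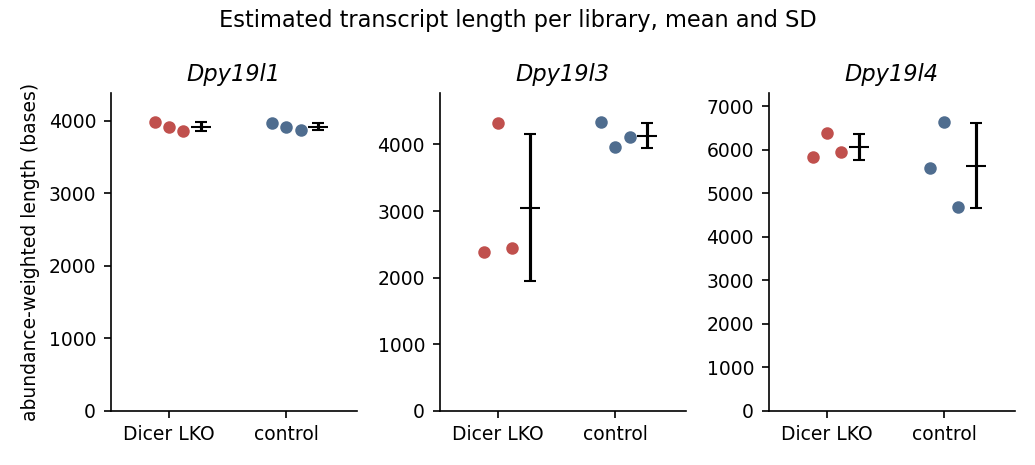
Abundance-weighted transcript length in bases of Dpy19l1, Dpy19l3 and Dpy19l4 in each library (points), with mean and SD, Dicer LKO to the left of the control. Of the Dpy19l3 points, 2383 and 2442 bases in Dicer LKO lie apart from the other 4, while Dpy19l1 is nearly constant.

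The expected count of each member was a whole number, within 1e-09, in 6 of 6 libraries. Reads divided between genes can leave fractions, but whole values were common, at 90.2% to 91.0% of those of the tested genes in each library, so they are only a description of the members. No other annotated gene overlaps Dpy19l3. The genes that overlap Dpy19l1 (Gm10701), Dpy19l2 (Cypt4) and Dpy19l4 (Gm22940 and Gm26663) had 0 reads in all 6 libraries.

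The genes beside Dpy19l3 overlapped between the groups. Of these 6, edgeR called 0, with 0 at an unadjusted p under 0.05 and 0 by DESeq2. Over all tested genes edgeR called 1.29%, 20.97% had such a p and DESeq2 called 8.13%. Zfp507, a zinc finger gene 17.9 kb away, was at 20.4, 24.8 and 18.8 CPM in Dicer LKO and at 27.04, 23.7 and 27.7 CPM in the controls. Pdcd5, a gene linked to apoptosis 37.6 kb away on the other side, was at 18.2, 17.8 and 18.9 CPM in Dicer LKO and at 19.0, 15.9 and 15.9 CPM in the controls. Within each of these genes the libraries of the groups were intermingled. The 6 neighbours were the nearest 3 tested protein-coding genes on each side: Zfp507, Pdcd5, Ankrd27, Nudt19, Tshz3 and Uri1. Their log2 fold changes ran from −0.29 to 0.25 with adjusted p-values of 0.305 and above (edgeR). All 6 had overlapping groups, where 28.0% of all tested genes had groups that did not overlap. Tshz3 and Uri1 lay far off, at 944 and 2210 kb. Dpy19l3 was chosen for its low value of −3.40, so the gap between it and the neighbours is a description only.

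**Figure D4:**
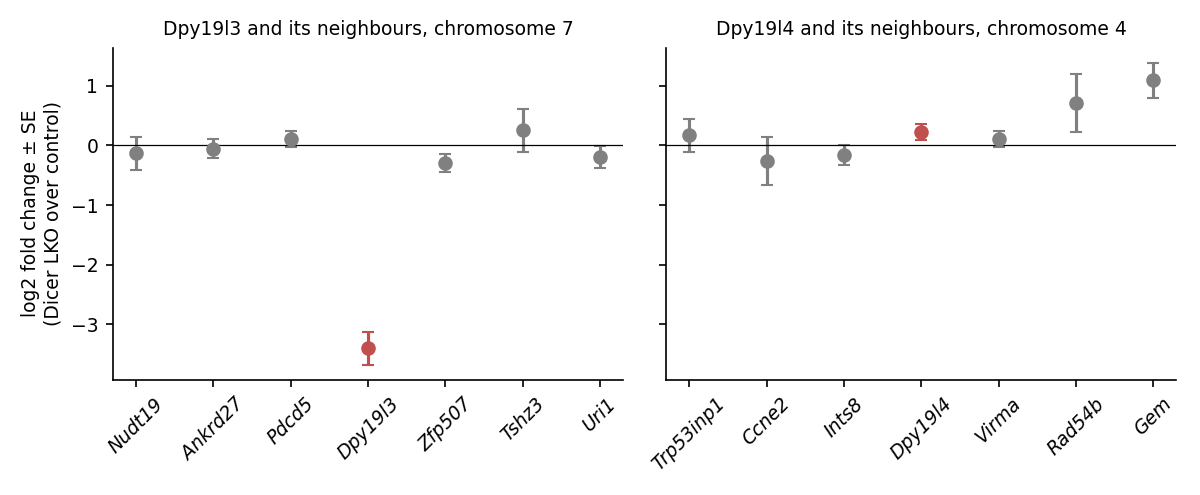
Log2 fold change (Dicer LKO over control) with SE for Dpy19l3 and Dpy19l4 (red) and the 3 nearest tested protein-coding genes on each side (grey), in chromosome order and not to distance. The neighbours of Dpy19l3 lie between −0.29 and 0.25 and Dpy19l3 at −3.40; Dpy19l4 lies at 0.22 among neighbours from −0.26 to 1.09.

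The promoter sequences, credited to RefSeq (GRCm38.p6), are shown for the member that was lower and for its most abundant paralog, from 250 bases before to 50 bases after the annotated start, on the gene's strand. Capitals mark the ETS core CGGAAG and the GC box GGGCGG on either strand.
Dpy19l3, chr7:35754405-35754704: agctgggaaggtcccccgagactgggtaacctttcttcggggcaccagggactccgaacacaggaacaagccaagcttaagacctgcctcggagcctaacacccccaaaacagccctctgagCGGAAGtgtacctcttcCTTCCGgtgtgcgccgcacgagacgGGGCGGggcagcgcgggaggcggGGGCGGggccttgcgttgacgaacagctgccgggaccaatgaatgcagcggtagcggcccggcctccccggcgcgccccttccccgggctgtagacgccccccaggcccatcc
Dpy19l1, chr9:24503091-24503390: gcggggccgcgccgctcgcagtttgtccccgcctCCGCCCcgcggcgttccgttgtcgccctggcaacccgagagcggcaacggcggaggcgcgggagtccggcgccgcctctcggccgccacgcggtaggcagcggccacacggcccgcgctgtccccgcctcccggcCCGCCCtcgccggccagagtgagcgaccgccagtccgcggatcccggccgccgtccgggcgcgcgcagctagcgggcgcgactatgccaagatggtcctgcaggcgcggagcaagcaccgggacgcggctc
Both are GC-rich, with 68.0% GC and 26 CpG dinucleotides for Dpy19l3 and 78.7% GC and 53 CpG for Dpy19l1, against medians of 52.7% and 7 over 32851 promoters of the same length. Dpy19l3 has 2 ETS cores, 2 GC boxes and 1 CCAAT box, and Dpy19l1 has 2 GC boxes. Of all these promoters 16.9% hold an ETS core, 35.7% a GC box and 37.4% a CCAAT box. The motifs were chosen after promoter sequences had been seen. Neither holds the TATA box TATAAA or the E-box CACGTG. No promoter activity or binding was measured here.

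The 5 tested genes whose profile over the 6 libraries was nearest to that of Dpy19l3 lay at root mean square distances of 0.31 to 0.51 in centred log2 CPM, where the median of all other genes was 1.76. The centred profile of Dpy19l3 itself had a root mean square size of 1.74, which is the distance of a flat profile. A small count was added before the log2, which shrinks differences at low counts. The nearest genes were Slc8a3 (a sodium-calcium exchanger), Zfp982 (a zinc finger gene), Irx1 (a homeobox gene), Dmrta1 and the clone RP24-280K5.4. In this order their log2 fold changes in the edgeR fit were −5.70, −2.87, −4.25, −4.40 and −3.07, against −3.40 for Dpy19l3. Zfp982 was at 0.550, 1.57 and 0.478 CPM in Dicer LKO and at 5.63, 6.44 and 6.82 CPM in the controls. Slc8a3 was at 0, 0.0476 and 0 CPM in Dicer LKO and at 1.13, 1.25 and 0.829 CPM in the controls. All 5 had a lower average CPM than Dpy19l3. They were picked for likeness in the contrast itself, so no test is given.

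Genes that make the mannose donor had small differences, none of which passed the test. Of 14 genes for dolichol-phosphate-mannose supply, all tested, edgeR called 0, with 0 at an unadjusted p under 0.05 and 0 by DESeq2. Over all tested genes edgeR called 1.29%, 20.97% had such a p and DESeq2 called 8.13%. In this list log2 fold changes ran from −0.30 to 0.23 with a median of 0.10, against −0.013 over all tested genes. With library totals in place of TMM factors the median of this list was −0.013 and that of all genes −0.13. Pmm2, which makes mannose-1-phosphate, was at 34.8 ± 0.943 CPM in Dicer LKO and 36.8 ± 2.80 CPM in the controls (SD, n = 3 each). Nus1, a subunit of the enzyme that builds the dolichol chain, was at 33.0 ± 3.80 CPM in Dicer LKO and 34.2 ± 2.54 CPM in the controls. Of 15 other enzymes that use the same donor, 14 were tested and edgeR called 0 (0 at an unadjusted p under 0.05, 0 by DESeq2), with a median of −0.037. Among them, Tmem260, an O-mannosyltransferase, was at 28.8 ± 2.996 CPM in Dicer LKO and 28.1 ± 3.33 CPM in the controls, and Pomt2, which starts O-mannosylation of dystroglycan, at 24.5 ± 1.76 CPM in Dicer LKO and 23.5 ± 2.86 CPM in the controls.

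The enzymes that add other sugars next to the C-mannose or in the same compartment were not called by edgeR or DESeq2. Over all tested genes edgeR called 1.29% and DESeq2 8.13%. Pofut2, which adds fucose to thrombospondin repeats, was at 17.4 ± 2.92 CPM in Dicer LKO and 16.0 ± 1.63 CPM in the controls. B3glct, which extends that fucose with glucose, was at 2.66 ± 0.621 CPM in Dicer LKO and 2.10 ± 0.197 CPM in the controls. Of 12 subunits of the oligosaccharyltransferase, which transfers N-glycans, edgeR called 0, with a median of 0.25. An unadjusted p under 0.05 was found for 1 of these subunits, as for 20.97% of all tested genes. For 6 of the subunits every Dicer LKO library was above every control, as for 12.7% of all tested genes. Rpn2, its most expressed subunit here, had overlapping groups, at 146 ± 12.4 CPM in Dicer LKO and 125 ± 22.6 CPM in the controls (log2 fold change 0.22, adjusted p = 0.526, edgeR). Rpn1, another subunit, was at 134 ± 26.2 CPM in Dicer LKO and 104 ± 10.3 CPM in the controls (0.36, adjusted p = 0.283, edgeR).

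Among genes for proteins that carry thrombospondin type 1 repeats, the acceptors of C-mannose, 39 of 55 passed the filter on low counts. Of these 4 rose and 0 fell in Dicer LKO by edgeR, where 0.741% of all tested genes were called higher and 0.552% lower. Of the 39, 16 had an unadjusted p under 0.05 in either direction, as did 20.97% of all tested genes. DESeq2 called 8 higher and 1, Sspo, lower, where it called 3.43% of all genes higher and 4.70% lower. The median log2 fold change was 0.44. Spon1, a matrix adhesion protein, was at 4.04, 3.86 and 6.77 CPM in Dicer LKO and at 0.766, 0.816 and 0.765 CPM in the controls (log2 fold change 2.64, SE 0.31, adjusted p = 0.0149, edgeR). Adamtsl2, a matrix protein that binds fibrillin and latent TGF-beta binding protein, was at 15.3, 24.7 and 18.1 CPM in Dicer LKO and at 6.45, 4.66 and 7.59 CPM in the controls (1.64, SE 0.24, adjusted p = 0.0326, edgeR). In each of these genes all Dicer LKO libraries lay above all controls, as in 12 of the 39 and in 12.7% of all tested genes. In 6 of the 39 every Dicer LKO library lay below every control, as in 15.4% of all tested genes. The protease gene Adamts15 rose by 1.53 (adjusted p = 0.0481, edgeR) and Thbs2, a matrix thrombospondin, by 1.36 (adjusted p = 0.0298, edgeR). The number of risers in the list was 0 without control replicate 2 or 3, 1 without Dicer LKO replicate 1 or 3, 2 without Dicer LKO replicate 2 and 3 without control replicate 1. It was 2 with library totals, 1 with limma on TPM and 7 without the filter on low counts, and 0 fell in each of these. Over all genes, too, the balance of calls moved with the setting: 57.3% of those called were higher in Dicer LKO, against 42.2% by DESeq2, 19.5% without control replicate 1 and 82.1% without Dicer LKO replicate 1. The 8 stellate cell and fibroblast markers summed to 507 to 568 CPM in Dicer LKO and 373 to 414 CPM in the controls. Of these 8, 6 had a positive log2 fold change and edgeR called 2 higher. The 6 bile duct markers summed to 141 to 267 CPM in Dicer LKO and 32.0 to 46.6 CPM in the controls. Of these 6, 5 had a positive log2 fold change and 3 were called higher. The 6 endothelial markers summed to 349 to 467 CPM in Dicer LKO and 238 to 306 CPM in the controls (1 called higher). The 6 erythroid markers, all called higher, summed to 1074 to 2057 CPM in Dicer LKO and 197 to 277 CPM in the controls. Macrophage and neutrophil markers had 0 calls, with sums of 234 to 299 CPM in Dicer LKO and 133 to 258 CPM in the controls for macrophages and of 32.2 to 75.2 CPM in Dicer LKO and 1.66 to 21.5 CPM in the controls for neutrophils. The part of these cells in the rise was not tested.

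Of 27 type I cytokine receptor genes, 20 were tested, with a median of 0.38. Of those tested, edgeR called 0, where it called 1.29% of all tested genes. An unadjusted p under 0.05 was found for 6, as for 20.97% of all tested genes, and DESeq2 called 2, Osmr higher and Lifr lower, where it called 8.13% of all genes. Osmr, the oncostatin M receptor, was at 13.2, 31.1 and 13.6 CPM in Dicer LKO and at 3.92, 5.72 and 4.72 CPM in the controls (log2 fold change 2.01, SE 0.37, adjusted p = 0.0604, edgeR). It was named after its values were seen. Lifr, the leukaemia inhibitory factor receptor, was at 308, 219 and 260 CPM in Dicer LKO and at 506, 464 and 773 CPM in the controls. For Lifr alone of the 20 every Dicer LKO library lay below every control, as for 15.4% of all tested genes. For 6 of the 20 every one lay above, as for 12.7% of all tested genes. Lifr missed the threshold (log2 fold change −1.15, SE 0.25, adjusted p = 0.0751, edgeR). Il6st, the shared signalling subunit of that receptor family, was at 340 ± 64.0 CPM in Dicer LKO and 300 ± 27.7 CPM in the controls.

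**Figure D5:**
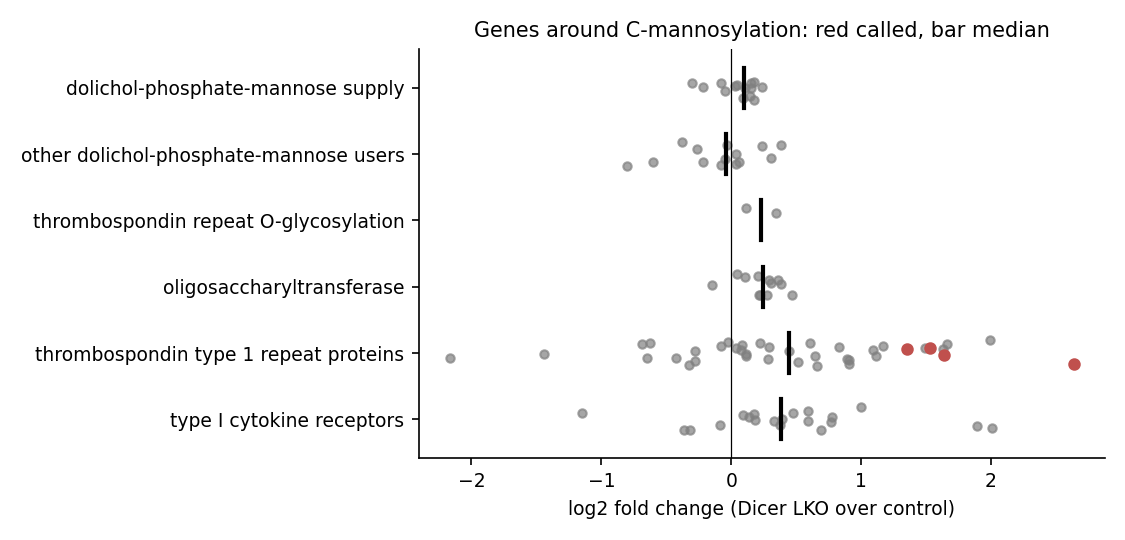
Log2 fold change (Dicer LKO over control) of each tested gene in the 6 lists around C-mannosylation; red points were called at an adjusted p under 0.05, grey points were not, and the black bar is the list's median. The 4 red points, from 1.36 to 2.64, are all in the list of thrombospondin type 1 repeat proteins.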

How the data were processed

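The authors deposited, per sample, an expected count (estimated reads per gene, not normalized), a TPM value (corrected for effective length and scaled by the authors to the same total in each sample) and a transcript length; the column names are RSEM's, per the file headers. CASAVA, Bowtie and the human build hg19 are listed in the submitters' processing notes, although the gene identifiers are mouse. The mouse build, annotation and counting program were not given in the sources used here. Of the identifiers, 99.56% matched GENCODE M21 (GRCm38), which gave coordinates, transcripts and untranslated regions. The deposited expected counts were rounded. They were filtered with filterByExpr, scaled by TMM and tested with edgeR 4.0.16 (quasi-likelihood, robust; R 4.3.3), fitting genotype alone, with Benjamini-Hochberg adjustment over all genes; a gene was called at an adjusted p under 0.05. Permutation tests used SciPy 1.17.1, and alternatives DESeq2 1.42.0 and limma 3.58.1. The edgeR steps were tested on simulated counts.

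The members and gene lists were chosen with earlier results of these data known. Named genes were the members, Dicer1, the 5 genes nearest to Dpy19l3 in profile, the neighbours, and in each list up to 4 called genes or else the 2 most expressed; other genes were chosen after their values were seen. Floors for a count of 0 cover counting error only. Between any pair of libraries at most 1.58% of the tested genes had equal rounded counts, and chi-square per degree of freedom over genes was 26.2 or more, so none was counted as a duplicate.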

Additional observations from a re-analysis of the deposited data

How the results depend on the processing

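Dpy19l3 kept its direction in every alternative run, with log2 fold changes of −3.60 to −3.15 without each library in turn and −2.86 with limma on log2(TPM + 0.1), where transcript length, the pseudocount and the scaling all differ. Dpy19l1 stayed positive and uncalled in all of them. Dpy19l4 stayed uncalled, and its value was −0.022 with limma on TPM, where the median of all genes was −0.12; the cause was not tested. The number of genes called was 185, and it was 103 with library totals, 422 without a filter on low counts, 1160 with DESeq2 and 23 to 389 without each library in turn. Libraries with the same replicate number had weakly correlated deviations from their group means (0.109, 0.065 and −0.096). With 3 libraries per group this check cannot exclude a pairing. With the replicate number as a block 245 genes were called and Dpy19l3 was at −3.44. Dpy19l3 rests on 39 to 79 reads per Dicer LKO library, which limits both its level and its transcript length, and Dpy19l2 was below the limit that these depths can show.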

Other observations

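The terminal complement components, which carry thrombospondin repeats, had overlapping groups; these genes were chosen after their values were seen. C8a was at 1325 ± 248 CPM in Dicer LKO and 1252 ± 274 CPM in the controls, C8b at 368 ± 29.8 CPM in Dicer LKO and 349 ± 69.7 CPM in the controls, and C9 at 489 ± 103 CPM in Dicer LKO and 516 ± 137 CPM in the controls (SD, n = 3 each). C6 was at 200 ± 34.4 CPM in Dicer LKO and 251 ± 34.1 CPM in the controls. These 4 had adjusted p-values of 0.373 and above (edgeR). C7, much less abundant, was at 3.02 ± 1.15 CPM in Dicer LKO and 1.44 ± 0.801 CPM in the controls (log2 fold change 1.09, unadjusted p = 0.0445, adjusted p = 0.226, edgeR).

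The neighbourhood of Dpy19l1 and Dpy19l2 on chromosome 9 differed from that of Dpy19l3 in its values. Bmper, which encodes a BMP-binding protein 927 kb from Dpy19l1, was at 6.83, 12.5 and 5.46 CPM in Dicer LKO and at 0.721, 1.87 and 0.383 CPM in the controls (log2 fold change 3.02, adjusted p = 0.0624, edgeR), just short of the threshold. Tbx20, a T-box factor gene 21.8 kb from Dpy19l2, was at 9.61 ± 0.823 CPM in Dicer LKO and 5.76 ± 0.612 CPM in the controls (adjusted p = 0.0751, edgeR). Beside Dpy19l4, Gem, a small GTPase gene, was at 5.58 ± 0.130 CPM in Dicer LKO and 2.61 ± 1.11 CPM in the controls (adjusted p = 0.102, edgeR). Among the 6 neighbours of each member edgeR called 0, where it called 1.29% of all tested genes. DESeq2 called Bmper, Tbx20 and Gem higher, where it called 3.43% of all genes higher and 8.13% in either direction. Of the neighbours of Dpy19l1, 4 had an unadjusted p under 0.05 (edgeR), as did 20.97% of all tested genes. These were Bmper, Bbs9 and Tbx20, with every Dicer LKO library above every control, and Herpud2, with every one below. Herpud2 was at 17.3, 14.4 and 16.4 CPM in Dicer LKO and 19.7, 23.2 and 25.3 CPM in the controls (log2 fold change −0.50, adjusted p = 0.123, edgeR). Groups did not overlap for 5 of the 6 neighbours of Dpy19l1, Sept7 (Dicer LKO above) included, and for 28.0% of all tested genes. Over all tested genes every Dicer LKO library lay above every control for 12.7% and below for 15.4%.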
